A study of Mus musculus with 4 samples.

Results

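The mitochondrial ribosomal protein genes were taken as the protein-coding genes of the mouse annotation (GENCODE M21, mm10) whose symbol begins with Mrpl or Mrps followed by a digit. Of 36918 genes in the count table, 75 met this rule, 46 named for the large subunit (Mrpl) and 29 for the small subunit (Mrps). A further 3 genes that the annotation names in this way, Mrpl34, Mrpl41 and Mrpl53, were not analysed here. The rule uses names alone, and 73 of the 75 had enough counts to be tested.

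The libraries were made by ChAR-seq, in which RNA is extracted from the chromatin fraction of lysed nuclei and sequenced, so that transcripts still being made are enriched. Both groups were mouse embryonic stem cells (mESCs) from a selected clone in which ZBTB21, a zinc finger transcription factor, carried an auxin-inducible degron with GFP (mAID-GFP) on its endogenous gene, in a line with the plant F-box protein OsTIR1 at Rosa26. The 2 libraries of the degron group came from cells given doxycycline at 1 μg/ml for 24 h and then the auxin indole acetic acid (IAA, 500 μM) for 6 h, which degrades the tagged protein, and the other 2 libraries were untreated. Whether untreated cells received doxycycline is not stated, so the loss of ZBTB21, IAA and doxycycline cannot be told apart here.

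The mitochondrial ribosome makes the few proteins that are encoded by mitochondrial DNA, which are core subunits of the respiratory chain and of ATP synthase. Its RNAs come from mitochondrial DNA, but every one of its proteins is encoded in the nucleus, made in the cytosol and imported. Some of these proteins have bacterial counterparts, kept from the bacterial ancestor of mitochondria, and others are found only in mitochondrial ribosomes. In mammals their nuclear genes often have promoters that bind NRF1, ETS factors such as GABPA, and YY1, and many start next to a gene transcribed in the opposite direction.

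Total counts ran from 4262382 to 6479842 per library, and 14361 genes were tested. A gene at 0 could still have 3 counts, which is 0.458 to 0.715 CPM (counts per 1000000, scaled by library size), for counting error only. The degron acts on the protein and Zbtb21 RNA had 2 counts or fewer in each library, so the RNA did not check the labels. Of 8 embryonic stem cell markers tested, 7 were higher in the degron libraries (87.5%, beside 20.3% of all genes tested). The tested marker not called, Zfp42, had 429 and 470 CPM untreated and 418 and 420 CPM in the degron libraries. Its log2 fold change was -0.10 (edgeR adjusted p = 0.103), and it was lower with the length-adjusted scaling described below (-0.24, edgeR adjusted p = 0.000467). A ninth marker, Dppa5a, had 1 count or none in each library. Among endoderm markers, Hnf4a (26 and 23 counts untreated, 10 and 11 in the degron libraries) and Gata6 (11 and 13, then 6 and 7) were lower and Gata4 did not pass the test, and the summed level of the 7 markers was 27.4 and 33.1 CPM untreated and 18.3 and 20.6 CPM in the degron libraries. With length-adjusted scaling Hnf4a stayed lower (-1.40, edgeR adjusted p = 0.00269) and Gata6 did not pass (-1.20, 0.0594). Neither had an adjusted p in the DESeq2 test given below. The 8 fibroblast markers summed to 20.7 and 25.1 CPM and then to 16.5 and 17.4 CPM, with no gene called and Dcn, Lum, Postn and the 3 collagen genes at 3 counts or fewer in every library. The 2 tested were Pdgfrb (log2 fold change -0.39, edgeR adjusted p = 0.0787) and Thy1 (-0.63, 0.0957). With length-adjusted scaling Thy1 was lower (-0.84, edgeR adjusted p = 0.0307). The part of these shifts in the results below was not tested, and in bulk RNA fewer cells of a type and less RNA per cell cannot be told apart.

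More mitochondrial ribosomal protein genes were higher than lower on chromatin after ZBTB21 depletion, and the changes were small. Of the 73 tested, 33 rose and 4 fell (edgeR quasi-likelihood test, Benjamini-Hochberg adjusted p under 0.05 over all genes tested). This is 45.2% higher, where 20.3% of all genes tested were higher and 19.8% were lower. Their median log2 fold change was 0.35, or 1.27-fold, beside a median of -0.00075 for all genes tested, and the values ran from -0.48 for Mrpl1 to 0.89 for Mrpl18. The fold changes are relative to the typical gene, since the counts do not show a change common to all genes.

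Both degron libraries lay above both untreated libraries for 46 of the 73 genes and below them for 10. Over all genes tested these shares were 34.4% and 34.6%. Together the 75 genes took 0.235% of all counts in each untreated library, and 0.275% and 0.273% in the degron libraries. The 95% Wilson intervals, which cover counting error only, were 0.230% to 0.240% over the untreated libraries and 0.268% to 0.279% over the degron libraries, so the groups did not overlap. With DESeq2's Wald test 16 of the genes were higher and 3 lower, where 14.7% of the genes with an adjusted p were higher and 13.9% lower. Some of the 73, such as Mrpl16, Mrpl27 and Mrpl32, had no adjusted p in that test, so the 16 are not out of 73.

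**Figure D1:**
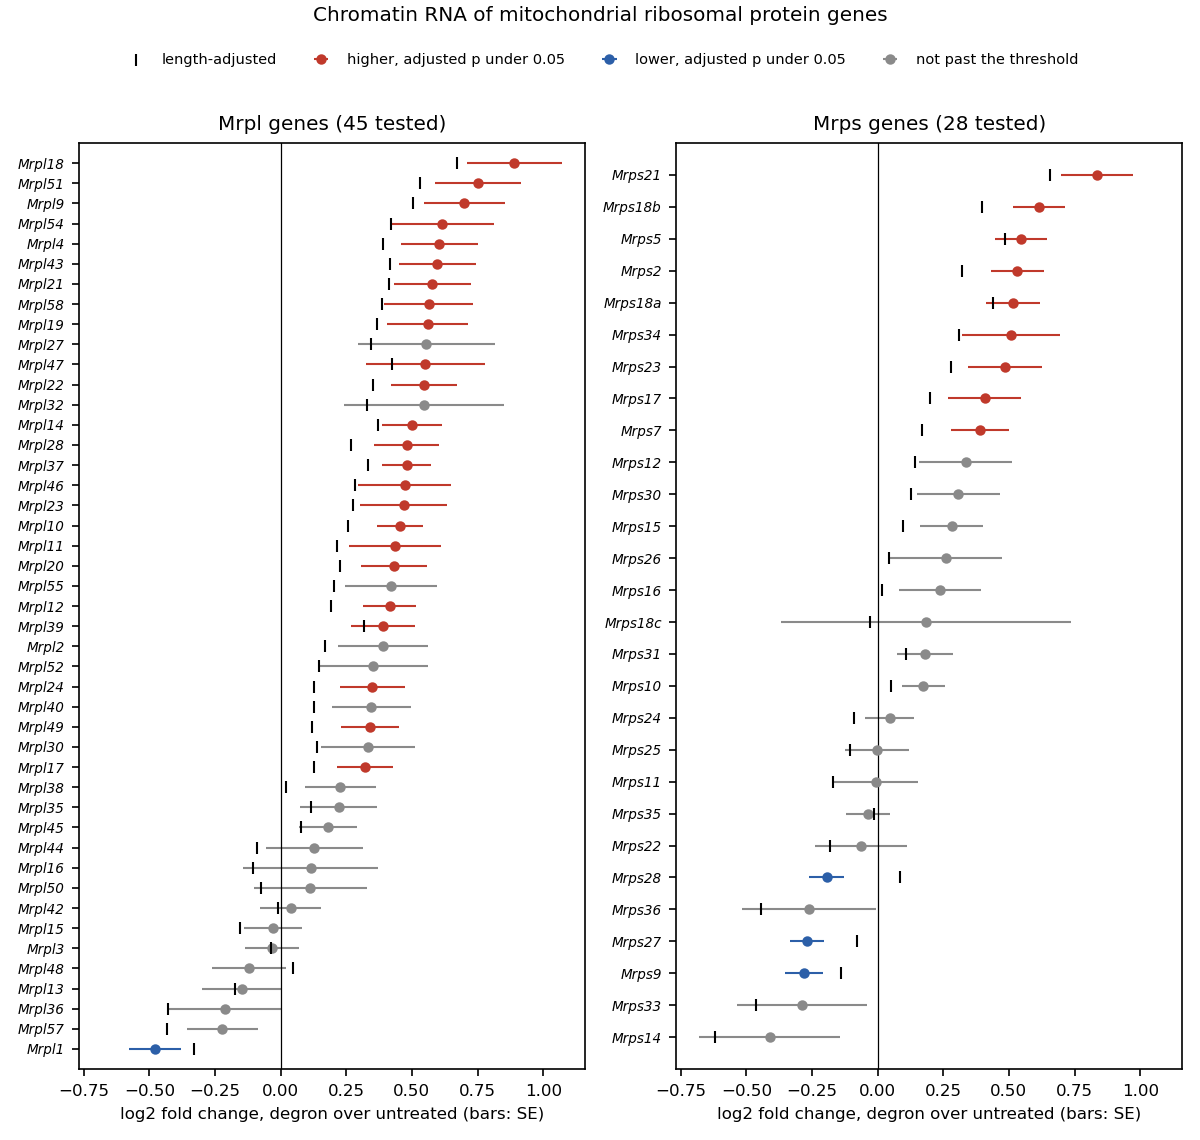
Log2 fold change (degron over untreated, x axis) of each tested gene, Mrpl genes on the left and Mrps genes on the right, ordered by value. Circles and bars are the edgeR estimate and its SE (2 libraries a group), colour gives the call, and black ticks are the length-adjusted estimates. Red circles, 24 Mrpl and 9 Mrps genes, outnumber blue ones, and the ticks lie left of the circles for most of them.

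By name, 24 of the 33 risers were large-subunit genes. Of 45 genes so named and tested, 24 rose and 1 fell, with a median log2 fold change of 0.41, and their share of all counts went from 0.109% and 0.107% to 0.136% and 0.136%. Of 28 genes named for the small subunit and tested, 9 rose and 3 fell, with a median of 0.21, and their share went from 0.126% and 0.128% to 0.139% and 0.137%. These are 53.3% and 32.1% higher, beside 20.3% of all genes tested. The difference between the subunits was not tested.

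By origin, large-subunit proteins with bacterial counterparts had 16 genes higher and 1 lower of 27 tested (median log2 fold change 0.44), and large-subunit proteins found only in mitochondria had 8 higher and none lower of 18 (median 0.35). For the small subunit, 5 of 14 genes with bacterial counterparts were higher and 1 was lower (median 0.26), and 2 of 9 mitochondria-specific genes were higher and 1 was lower (median -0.0034). In that order 59.3%, 44.4%, 35.7% and 22.2% were higher, beside 20.3% of all genes tested. Mrps18a, Mrps18b, Mrps28, Mrps30 and Mrps36 were placed in neither class.

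Among large-subunit genes, Mrpl18, whose protein belongs to the bacterial L18 family that contacts 5S rRNA in bacteria, rose most. It lies at chr17:12911349-12916345 on the minus strand (mm10). Its level was 13.6 and 10.0 CPM untreated and 24.7 and 18.7 CPM in the degron libraries. Both degron values exceeded both untreated values. The log2 fold change was 0.89 ± 0.18 (SE, n = 2 a group, edgeR adjusted p = 0.000112).

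Mrpl37, a mitochondria-specific protein of the large subunit, lies at chr4:107055874-107066868 on the minus strand. It stood at 52.9 and 59.8 CPM without treatment and at 80.6 and 75.7 CPM after it. The groups were well apart, with a log2 fold change of 0.48 ± 0.09 (edgeR adjusted p = 4.25e-05).

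The stalk of the large subunit, where translation factors dock, is built on Mrpl10 with Mrpl12, and Mrpl11 lies at its base. All 3 of these genes were higher in the degron libraries, with no overlap between groups. Mrpl10 (chr11:97041560-97049213, plus strand) had 59.5 and 60.0 CPM untreated and 78.4 and 86.0 CPM in the degron libraries, a log2 fold change of 0.45 ± 0.09 (edgeR adjusted p = 5.98e-05). Mrpl12, whose protein also binds the mitochondrial RNA polymerase, had 40.6 and 45.3 CPM and then 56.0 and 58.4 CPM, a log2 fold change of 0.41 ± 0.10 (edgeR adjusted p = 0.0011). Mrpl11 had 12.5 and 14.3 CPM and then 16.9 and 19.5 CPM. Its log2 fold change of 0.44 ± 0.18 passed narrowly (edgeR adjusted p = 0.0442) and did not pass in 3 of the 4 fits that left out 1 library: without untreated replicate 1 (adjusted p = 0.254), without untreated replicate 2 (0.0616) and without degron replicate 2 (0.181).

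Mrpl23, which lines the exit of the peptide tunnel, had 14.7 and 14.8 CPM untreated and 18.9 and 22.2 CPM in the degron libraries. Its log2 fold change was 0.47 ± 0.17 (edgeR adjusted p = 0.0222), and the call was lost without untreated replicate 1 (adjusted p = 0.0907), without untreated replicate 2 (0.0746) and without degron replicate 2 (0.129). Mrpl58, a peptidyl-tRNA hydrolase that is built into the large subunit and frees stalled chains, went from 13.2 and 14.3 CPM to 19.1 and 21.8 CPM. It was higher by 0.56 ± 0.17 on the log2 scale (edgeR adjusted p = 0.0068), a call lost without untreated replicate 1 (adjusted p = 0.0657).

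Mrpl1, whose bacterial counterpart forms the stalk on the other side of the subunit, near the tRNA exit site, was the only large-subunit gene that fell. At 57.2 kb (chr5:96209493-96266727, plus strand) it is also among the longest of the 75 genes. Its level was 61.6 and 63.6 CPM untreated and 42.6 and 47.8 CPM in the degron libraries. Both degron libraries were below both untreated ones, with a log2 fold change of -0.48 ± 0.10 (edgeR adjusted p = 0.000137).

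Among small-subunit genes, Mrps21 rose most. Its protein belongs to the bacterial S21 family, and the gene lies at chr3:95862634-95871519 on the minus strand. It had 26.3 and 17.6 CPM untreated and 40.4 and 38.7 CPM in the degron libraries. The untreated pair was more spread than the degron pair, but the groups were apart, and the log2 fold change was 0.84 ± 0.14 (edgeR adjusted p = 3.91e-06).

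Mrps5, of the family whose bacterial member lies at the mRNA entry, had 48.8 and 41.7 CPM untreated and 64.1 and 69.2 CPM in the degron libraries, a log2 fold change of 0.55 ± 0.10 (edgeR adjusted p = 2.16e-05). Mrps2, of the bacterial S2 family, had 43.8 and 39.5 CPM and then 61.3 and 59.2 CPM, a log2 fold change of 0.53 ± 0.10 (edgeR adjusted p = 4.15e-05). Neither gene overlapped between groups.

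The 3 Mrps18 paralogs, which all derive from the bacterial S18 family, had mean levels of 10.2 (Mrps18b), 3.18 (Mrps18a) and 0.283 (Mrps18c) CPM per kb of counted length. Mrps18b (chr17:35910379-35916389, minus strand) had 44.2 and 48.1 CPM untreated and 74.3 and 65.9 CPM in the degron libraries, a log2 fold change of 0.61 ± 0.10 with the smallest adjusted p of the 73 genes (edgeR, 2.14e-06). Mrps18a, which despite its name sits in the large subunit, had 50.1 and 41.7 CPM and then 62.0 and 70.6 CPM, a log2 fold change of 0.51 ± 0.10 (edgeR adjusted p = 7.77e-05). Mrps18c was hardly detected, with 11 and 2 counts untreated and 8 and 11 counts in the degron libraries, and 39.3% of it is covered by another gene on the same strand. Its groups overlapped, and its log2 fold change of 0.18 ± 0.55 did not pass (edgeR adjusted p = 0.821).

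Mrps12, a protein of the decoding region, had 18.5 and 11.4 CPM untreated and 19.2 and 18.9 CPM in the degron libraries. The gap between groups was small beside the spread of the untreated pair, and the log2 fold change of 0.33 ± 0.18 did not pass (edgeR adjusted p = 0.134), and it was 0.75 without untreated replicate 1 (adjusted p = 0.00889) but 0.06 without untreated replicate 2 (adjusted p = 0.87). Mrps30, which also sits in the large subunit, had 20.6 and 27.4 CPM and then 24.0 and 36.4 CPM. These groups overlapped, with a log2 fold change of 0.31 ± 0.16 (edgeR adjusted p = 0.119). It passed without untreated replicate 2 (0.53, adjusted p = 0.0157) and without degron replicate 1 (0.62, adjusted p = 0.000884), and was smaller without untreated replicate 1 (0.11, adjusted p = 0.66) and without degron replicate 2 (0.01, adjusted p = 0.967). Mrps36, since assigned to the 2-oxoglutarate dehydrogenase complex, had 7.65 and 7.39 CPM and then 6.56 and 5.90 CPM, a log2 fold change of -0.26 ± 0.25 that did not pass (edgeR adjusted p = 0.434).

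Mrps9, Mrps27 and Mrps28 fell, and each is longer than 50 kb. Mrps27, a pentatricopeptide repeat protein of the small subunit, had 196 and 182 CPM untreated and 157 and 157 CPM in the degron libraries, a log2 fold change of -0.27 ± 0.06 (edgeR adjusted p = 0.000762). Mrps9, of the bacterial S9 family, had 131 and 144 CPM and then 111 and 116 CPM, a log2 fold change of -0.28 ± 0.07 (edgeR adjusted p = 0.00172). Mrps28 had 174 and 193 CPM and then 158 and 163 CPM, a log2 fold change of -0.19 ± 0.07 (edgeR adjusted p = 0.0154). Groups did not overlap for any of them, but without untreated replicate 2 the adjusted p was 0.0634 for Mrps9 and 0.311 for Mrps28, and without degron replicate 1 it was 0.13 for Mrps28.

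**Figure D2:**
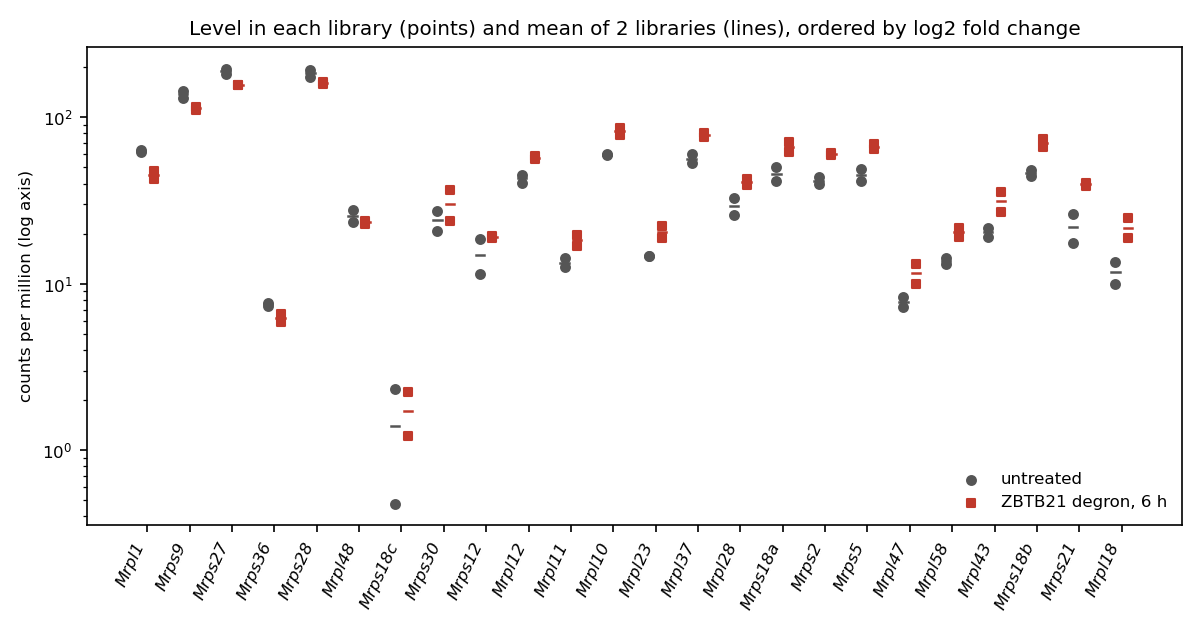
Level of the 24 genes chosen by the naming rule in each library (y axis, CPM, log axis), ordered by log2 fold change from left to right. Points are libraries (grey circles untreated, red squares degron) and short lines are means of 2 libraries. The red squares lie below the grey circles for Mrpl1, Mrps9 and Mrps27 on the left and above them for Mrps21 and Mrpl18 on the right, and the untreated points of Mrps18c are far apart at 2.34 and 0.476 CPM.

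Gene length moved with these results. Introns count as well as exons in this assay, and across all genes tested, which are not independent replicates, longer genes had lower fold changes (Spearman rho = -0.47). The mitochondrial ribosomal protein genes are mostly short, from 1.61 to 122 kb with a median of 8.06 kb for the 75, while the median gene tested was 24.8 kb long. Over the 73 genes the rho of log2 fold change and length was -0.39. The split at 20 kb used next was chosen after the values were seen.

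All 33 risers are shorter than 20 kb and the 4 that fell are longer. Of the 64 genes under 20 kb, 33 were higher and none was lower, 51.6% against 29.5% higher and 3.98% lower among all genes of that length. Their median log2 fold change was 0.39, beside 0.20 for all genes under 20 kb. Of the 9 tested genes of 20 kb and over, none was higher and 4 were lower, where 13.3% of all genes that long were higher and 32.0% were lower. The medians of this length class were -0.15 for the 9 genes and -0.14 for all.

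With a scaling that removes the length trend in each library, 16 of the 73 genes were higher and 2 were lower. This 21.9% was close to the background of 18.1% higher under the same scaling, with 10.0% lower. The median log2 fold change was 0.14, beside 0.028 for all genes tested. Under 20 kb, 16 of 64 genes (25%) were higher and 1 was lower, where 15.1% of all genes of that length were higher and 7.01% lower. Over all lengths, 11 of 45 genes named for the large subunit were higher (24.4%, median 0.20) and 2 lower. Of 28 named for the small subunit, 5 were higher (17.9%, median 0.07) and none lower. By origin, 7 of 27 large-subunit genes with bacterial counterparts and 4 of 18 mitochondria-specific ones were higher. For the small subunit these were 3 of 14 and 0 of 9.

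The 16 genes that stayed higher included the 8 with the smallest adjusted p. Length-adjusted log2 fold changes were 0.67 for Mrpl18, 0.66 for Mrps21, 0.48 for Mrps5, 0.44 for Mrps18a, 0.40 for Mrps18b, 0.33 for Mrpl37, 0.32 for Mrps2 and 0.26 for Mrpl10. Mrpl12 (0.19, edgeR adjusted p = 0.161), Mrpl11 (0.22, 0.389), Mrpl23 (0.28, 0.225) and Mrpl58 (0.39, 0.0853) no longer passed. Mrpl1 stayed lower at -0.33 (edgeR adjusted p = 0.00955), Mrps9 (-0.14, 0.148) and Mrps27 (-0.08, 0.403) did not, and Mrps28 changed sign (0.09, 0.352). The second gene that was lower here was Mrpl57, a small mitochondria-specific protein of the large subunit, with 32.3 and 26.7 CPM untreated and 25 and 25.8 CPM in the degron libraries. Its length-adjusted log2 fold change was -0.43 (edgeR adjusted p = 0.0113), against -0.22 (0.192) without the adjustment.

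**Figure D3:**
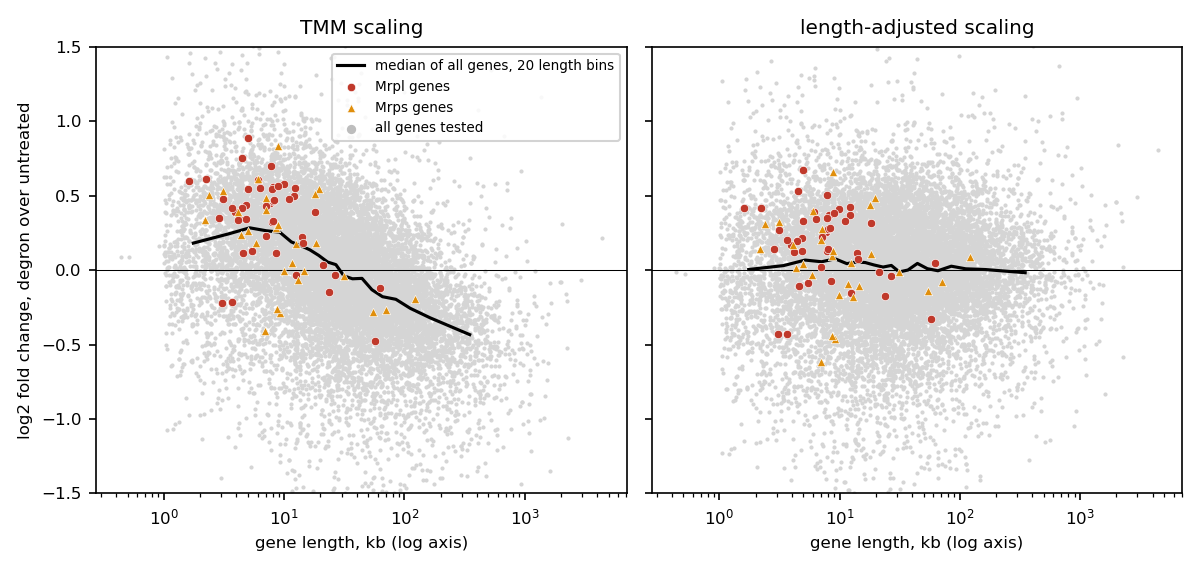
Log2 fold change (degron over untreated, y axis) against gene length (x axis, kb, log axis) with the usual scaling on the left and with length-adjusted scaling on the right. Grey points are all genes tested, the black line is their median in 20 bins of length, red circles are Mrpl genes and orange triangles Mrps genes, and genes beyond the axis limits are not drawn. On the left most Mrpl and Mrps genes lie at the short end, where the line is above 0, and on the right the line is near 0 while their median is 0.14.

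Levels were compared per kb of the counted part of each gene, from 300 bases after its start. Mrpl43 was highest at 19.7 CPM per kb (mean of 4 libraries), then Mrps2 at 18.1 and Mrpl28 at 12.4. Mrpl43, a mitochondria-specific protein of the large subunit, had 16.5 and 14.5 CPM per kb untreated and 20.7 and 27.1 CPM per kb in the degron libraries. Mrps2 had 15.6 and 14.1 and then 21.8 and 21 CPM per kb, so the order of the first pair did not hold beyond the spread between libraries. Mrpl28 had 9.21 and 11.6 and then 13.9 and 15.1 CPM per kb.

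Both of the other genes with a high level per kb were higher in the degron libraries, as Mrps2 was. The log2 fold change was 0.60 ± 0.15 for Mrpl43 (21.7 and 19.1 CPM, then 27.2 and 35.6 CPM, edgeR adjusted p = 0.00108) and 0.48 ± 0.12 for Mrpl28 (25.9 and 32.6 CPM, then 39.1 and 42.5 CPM, edgeR adjusted p = 0.00176). The call for Mrpl28 was lost with length-adjusted scaling (0.27, adjusted p = 0.103) and without untreated replicate 1 (0.32, adjusted p = 0.0892). For Mrpl43, 48.3% of the gene is covered by Twnk on the opposite strand, and it is not stated whether counting used strand.

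Lowest per kb among the 73 tested genes were Mrps18c (0.283 CPM per kb), Mrpl48 (0.393) and Mrpl47 (0.812). Mrpl48, of 62.6 kb, had 27.6 and 23.3 CPM untreated and 24.0 and 23.0 CPM in the degron libraries, which overlapped (log2 fold change -0.12 ± 0.14, edgeR adjusted p = 0.526). Mrpl47, of the bacterial L29 family, had 7.22 and 8.34 CPM and then 9.92 and 13.2 CPM. Its log2 fold change of 0.55 ± 0.23 passed narrowly (edgeR adjusted p = 0.047), not without untreated replicate 1 (0.233), untreated replicate 2 (0.0684) or degron replicate 2 (0.303), nor with length-adjusted scaling (0.42, adjusted p = 0.164), voom (0.0607) or DESeq2 (0.244).

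Mrpl33 and Mrps6 were not tested. Mrpl33 had 0 counts in every library, and Mrps6 had 0 and 2 counts untreated and 1 and 1 in the degron libraries. Both genes are covered over more than 99% of their length by other genes on the same strand, so these counts are not read as silence. On the opposite strand, other genes cover 12.9% of Mrpl18, 19.4% of Mrpl58, 30.6% of Mrps18b, 38.4% of Mrps18a and 22.5% of Mrps27, and without strand their reads could not be told apart. Of the 75 genes, 56 are overlapped over at most 10% of their length, and among the 40 with no overlap at all 16 (40.0%) were higher and 3 lower, where 20.3% and 19.8% of all genes tested were.

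The 75 genes are spread over 17 chromosomes, with at most 11 on 1 chromosome, which is chromosome 11. Many share a start region with a gene running the other way. Genes with a protein-coding neighbour on the opposite strand whose start lies within 1000 bp were counted as head to head. These were 32 of the 75 genes (42.7%), compared with 15.7% of 12600 tested protein-coding genes. For 15 of the 32 the neighbour starts inside the gene, so the pair overlaps. Without strand, reads from an overlap beyond the first 300 bases could not be told apart. The only such pair made of mitochondrial ribosomal protein genes alone is Mrpl46 (higher, 0.47) with Mrps11 (-0.0058, not called).

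Of 28 tested neighbours that are not mitochondrial ribosomal protein genes, 10 (35.7%) were higher and 1 was lower, with a median log2 fold change of 0.20. Among all genes tested 20.3% were higher, and among those under 20 kb 29.5% were higher with a median of 0.20. In 9 pairs both genes were higher, and among these the pairs of Mrpl18, Mrpl21, Mrpl43, Mrpl47 and Mrps7 overlap at their starts. Mrps18b pairs with Ppp1r10, a regulatory subunit of protein phosphatase 1, which had 114 and 102 CPM untreated and 159 and 133 CPM in the degron libraries (log2 fold change 0.45 ± 0.08, edgeR adjusted p = 1.09e-05). Mrpl43 pairs with Twnk, the mitochondrial DNA helicase, at 52.7 and 55.3 CPM and then 74.9 and 86.3 CPM (0.57 ± 0.09, edgeR adjusted p = 3.35e-06). Mrpl49 pairs with Fau, which encodes a cytosolic ribosomal protein, at 20.0 and 16.9 CPM and then 25.5 and 30.1 CPM (0.57 ± 0.15, edgeR adjusted p = 0.00198).

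In other pairs only 1 gene passed. Mrpl51 (higher, 0.75) starts 100 bp from the condensin gene Ncapd2, which had 339 and 285 CPM untreated and 314 and 323 CPM in the degron libraries (0.02 ± 0.06, edgeR adjusted p = 0.77). Mrpl36 (-0.21, not called) pairs with Ndufs6, a subunit of respiratory complex I, which went from 27.2 and 31.2 CPM to 42.9 and 46.6 CPM (0.61 ± 0.12, edgeR adjusted p = 5.26e-05). The 1 lower neighbour was Rab6a, a GTPase of Golgi traffic, beside Mrpl48, at 55.0 and 56.2 CPM and then 42.4 and 45.6 CPM (-0.34 ± 0.10, edgeR adjusted p = 0.00583).

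Of the 32 head-to-head genes, 16 were higher (50%) and 1 was lower, and of the 41 other tested genes 17 were higher (41.5%) and 3 lower. Among all genes tested 20.3% were higher and 19.8% lower. With length-adjusted scaling 10 head-to-head genes (31.25%) and 6 of the others (14.6%) were higher, beside 18.1% of all genes tested. The difference was not tested.

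**Figure D4:**
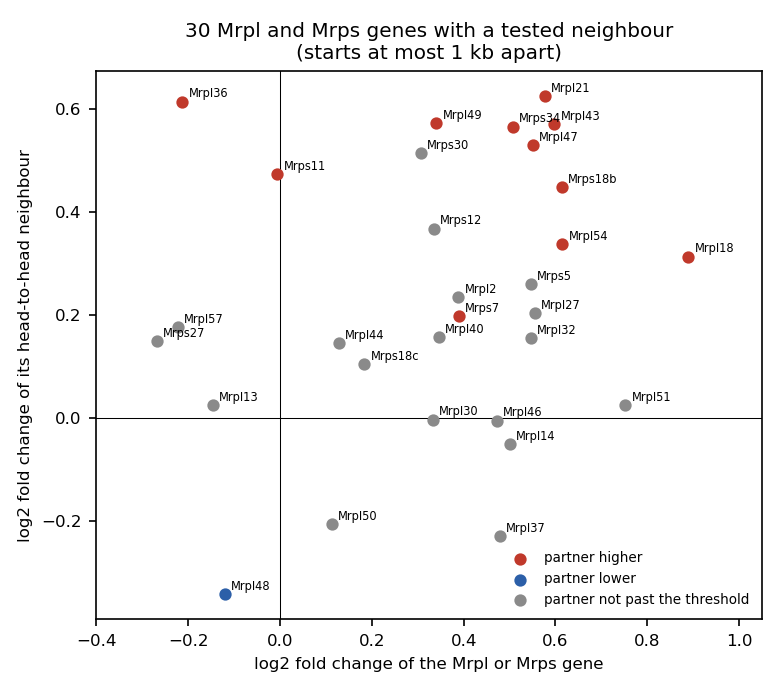
Log2 fold change of each Mrpl or Mrps gene with a tested head-to-head neighbour (x axis) against that of the neighbour (y axis). Points are 30 genes, with Mrpl46 and Mrps11 each standing as the neighbour of the other, and colour gives the neighbour's call. Most red points lie in the upper right, where both genes are higher, while Mrpl51 and Mrpl37 lie at the right with neighbours at 0.02 and -0.23.

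Promoter letters were read in RefSeq windows (GRCm38.p6) of 250 bases before and 50 after the start, for the 66 of 75 genes with an entry. Exact matches on either strand were counted for 3 motifs of the textbook regulators: GCGCATGC for NRF1, CCGGAAGT for ETS factors and AAGATGGCG for YY1. The windows below belong to the genes with the smallest adjusted p that rose and hold a match, and are shown so that the letters can be set beside the values above. The match is in capitals and can read on the reverse strand (GCATGCGC for NRF1). Each is written 5′ to 3′ along the gene's strand, and those after the start are kept short.
Mrps18b, upstream NRF1 match, chr17:35916626-35916690, minus strand: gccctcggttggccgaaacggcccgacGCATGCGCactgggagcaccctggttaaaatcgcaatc
Mrps18b, downstream NRF1 match, chr17:35916395-35916422, minus strand: cgtgtcccgaGCATGCGCagtcgctctt
Mrpl9, NRF1 matches on both strands that overlap, chr3:94443278-94443335, plus strand: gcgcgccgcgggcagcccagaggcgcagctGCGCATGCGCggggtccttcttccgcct
Mrpl10, NRF1 match, chr11:97041418-97041485, plus strand: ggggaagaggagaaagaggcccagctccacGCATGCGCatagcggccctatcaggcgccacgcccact
Mrpl22, NRF1 match, chr11:58171601-58171663, plus strand: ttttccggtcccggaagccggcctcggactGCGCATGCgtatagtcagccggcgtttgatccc
Mrpl18, ETS match, chr17:12916294-12916341, minus strand: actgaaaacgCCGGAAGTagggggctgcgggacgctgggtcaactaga
Mrpl51, ETS match, chr6:125192080-125192147, plus strand: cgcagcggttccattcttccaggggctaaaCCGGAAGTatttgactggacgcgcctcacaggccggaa
Mrpl37, YY1 match, chr4:107066822-107066850, minus strand: tgcacgggcaAAGATGGCGgcgtccaggt
Mrps18a, YY1 match, chr17:46111005-46111033, plus strand: ggtgcgttccAAGATGGCGgccctcaggg

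The NRF1 letters begin at positions -223 and 28 in Mrps18b, -28 in Mrpl9, -134 in Mrpl10 and -33 in Mrpl22, counting the RefSeq start base as 0. The ETS letters begin at -240 in Mrpl18 and -90 in Mrpl51, and the YY1 letters at 26 in Mrpl37 and 11 in Mrps18a. Upstream, downstream and these positions refer to the RefSeq start, which can differ from the GENCODE start behind the gene positions given above. Both Mrps18b matches lie before its GENCODE start. The ETS matches of Mrpl18 and Mrpl51 (GENCODE, chr6:125191801-125196269, plus strand) lie inside the GENCODE gene. A match describes letters only and is not a bound site.

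NRF1 letters were in the windows of 8 of the 66 genes (12.1%), compared with 6.18% of 9902 tested protein-coding genes and 3.05% of all 27025 genes with an entry. ETS letters were in 12 (18.2%, compared with 9.06% and 4.31%) and YY1 letters in 8 (12.1%, compared with 3.51% and 1.64%). At least 1 of the 3 was in 26 (39.4%, compared with 17.5% and 8.47%). The median GC content of the windows was 58.0%, and 52.8% for all genes.

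Genes with the NRF1 letters were Mrpl9, Mrpl10, Mrpl17, Mrpl22, Mrpl32, Mrpl33, Mrpl39 and Mrps18b. Of the 7 tested, 6 were higher (5 with length-adjusted scaling), with a median log2 fold change of 0.55. Of 57 tested genes without the letters 23 were higher (40.4%), with a median of 0.33, and 10 (17.5%) with length-adjusted scaling. Among all genes tested 20.3% were higher, and 18.1% with length-adjusted scaling. Mrpl22, of the bacterial L22 family, had 27.2 and 24.3 CPM untreated and 38.3 and 37.0 CPM in the degron libraries (0.55 ± 0.13, edgeR adjusted p = 0.000471). Mrpl9, of the bacterial L9 family, had 17.8 and 14.3 CPM and then 26.2 and 26.2 CPM (0.70 ± 0.15, edgeR adjusted p = 0.0003).

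Of 11 tested genes with the ETS letters, 3 were higher (27.3%) and 1 was lower (median 0.26). Without them 26 of 53 were higher (49.1%) and 2 lower (median 0.35). Mrpl51, with the ETS letters, was higher (12.7 and 15.7 CPM, then 24.7 and 22.8 CPM, 0.75 ± 0.16, edgeR adjusted p = 0.000237). Of 8 with the YY1 letters 2 were higher (25%) and 1 was lower (median 0.04). Without them 27 of 56 were higher (48.2%) and 2 lower (median 0.37). Among all genes tested 20.3% were higher. With length-adjusted scaling 3 genes with the ETS letters (27.3%) and 12 without (22.6%) were higher. For the YY1 letters these were 2 with (25%) and 13 without (23.2%), beside 18.1% of all genes tested. These counts are small, and no difference between classes was tested.

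Genes for other parts of the same system were read from lists by role. Of 5 mitochondrial ribosome subunits with other names, Gadd45gip1, a large-subunit protein, rose by 0.62 ± 0.14 on the log2 scale (116 and 79 counts, then 234 and 153), and Ptcd3, of the small subunit, had a log2 fold change of -0.19 ± 0.06. Both passed the edgeR test (adjusted p = 0.000382 and 0.0125), and Dap3, Aurkaip1 and Chchd1 did not. Of the 5 genes 20% were higher, beside 20.3% of all genes tested. With length-adjusted scaling Gadd45gip1 was higher (20%, beside 18.1%) and 2 were lower. These were Ptcd3 (-0.18, edgeR adjusted p = 0.0224) and Chchd1 (-0.52, 0.0445), where 10.0% of all genes were lower. Ptcd3 did not pass with DESeq2 (adjusted p = 0.0933). Among 25 tested genes for ribosome assembly and rRNA modification, 9 were higher and 2 lower, with a median of 0.31. This is 36.0% higher beside 20.3% of all genes tested, and with length-adjusted scaling 6 (24.0%, beside 18.1% of all genes) were higher and 1 lower. They included Trub2, a pseudouridine synthase (0.56 ± 0.06), and Rcc1l (0.48 ± 0.08), while Mettl15, a methyltransferase of the small-subunit rRNA, was lower (-0.66 ± 0.11).

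Of 14 tested mitochondrial translation factors, 1 was higher (7.14%, beside 20.3% of all genes tested) and none lower, with a median of 0.03. That gene was the initiation factor Mtif3 (116 and 118 counts, then 266 and 211, log2 fold change 0.66 ± 0.12, edgeR adjusted p = 2.67e-05). With length-adjusted scaling 2 were higher (14.3%, beside 18.1%), Mtif3 and Lrpprc (0.16, edgeR adjusted p = 0.0347). Of 4 tested genes for transcription of mitochondrial DNA, 1 was higher (25%, beside 20.3% of all genes tested) and none lower. It was the polymerase gene Polrmt (0.24 ± 0.09, edgeR adjusted p = 0.0341), which did not pass with length-adjusted scaling (0.08, adjusted p = 0.54) or with DESeq2 (adjusted p = 0.186). Of 25 tested genes for protein import into mitochondria, 13 were higher and 1 was lower, with a median of 0.37. This is 52.0% higher, and 28.0% (7 genes, none lower) with length-adjusted scaling, beside the same backgrounds of 20.3% and 18.1%. The smallest adjusted p values belonged to Tomm40, the channel of the outer membrane (0.52 ± 0.06), and Timm44 (0.54 ± 0.08), while others such as Timm10 (0.85 ± 0.18) rose by more.

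Of 8 tested regulators, Pprc1, a coactivator of the PGC-1 family, was higher at 952 and 768 counts and then 1765 and 1480 counts (0.56 ± 0.06, edgeR adjusted p = 9.67e-10), and Ppargc1b, of the same family, was lower (-0.49 ± 0.08, edgeR adjusted p = 1.79e-06). No other regulator was called, so 1 of 8 was higher (12.5%, beside 20.3% of all genes tested) and 1 lower. Nrf1 (-0.04 ± 0.05), Gabpa (-0.10 ± 0.09) and Yy1 (-0.02 ± 0.07) did not pass, although Nrf1 passed with length-adjusted scaling (0.22). With that scaling 2 of the 8 were higher (25%, beside 18.1% of all genes tested) and 1 lower. Of 5 tested genes encoded by mitochondrial DNA, 1 was higher (20%, beside 20.3% of all genes tested) and none lower. That gene was mt-Nd2 (27.4 and 26.4 CPM untreated, 28.8 and 46.8 CPM in the degron libraries, 0.45 ± 0.16, edgeR adjusted p = 0.0293). Only degron replicate 2 stood well above the untreated libraries, and the call was lost with length-adjusted scaling (0.29, adjusted p = 0.167) and with DESeq2 (adjusted p = 0.309).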

How the data were processed

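Chromatin RNA (rRNA-depleted) was measured in 4 mESC libraries, 2 in each group. The deposited values are raw counts per gene from the authors, unscaled. After trimming (cutadapt 2.6), reads were mapped against mm10 and dm6 (the paper names bowtie2, the labels list STAR 2.7.6a), and uniquely mapped reads without duplicates were counted with featureCounts 1.6.3 over each gene body, leaving out its first 300 bp. The strand setting is not given in the sources used here, nor is the annotation release for ChAR-seq (the paper names GENCODE vM25 for RNA-seq). The study scaled to fly spike-in reads, which were not used here, so a shift common to all genes cannot be measured.

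Of 36918 identifiers, 36770 matched GENCODE M21, the release at hand. edgeR 4.0.16 (R 4.3.3) kept 14361 genes with filterByExpr (minimum count 10, minimum total 15), scaled by TMM and compared groups with a two-sided robust quasi-likelihood F test, Benjamini-Hochberg adjusted over all genes tested at 0.05. CPM use the TMM-scaled library size. Length-adjusted scaling used as offset a loess fit (span 0.3), on log10 gene length, of the deviation of a library's log2 CPM (prior count 2) from the mean of all 4. Steps were tested on simulated data. The 2 libraries of each group were unlike beyond counting noise (chi-square over its degrees of freedom was 1.30 untreated and 1.39 degron), so each was 1 sample. No source says that cultures were separate, and the p-values may therefore reflect technical spread only. The alternatives tried were scaling by DESeq2 size factors or by total counts, no low-count filter, a minimum mean of 50 counts, the Wald test of DESeq2 1.42.0, limma 3.58.1 voom, a replicate block, protein-coding genes, at most 10% overlap and each library left out.

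Values per library are given for up to 8 genes with the smallest adjusted p in each direction, the 3 highest and 3 lowest per kb, the Mrps18 paralogs, the stalk genes, Mrpl58, Mrps30, Mrps36, Mrps12 and Mrpl23. Promoters follow the smallest adjusted p with a match (at most 8 genes). Mrpl57, the neighbours named and the regulators given beyond 4 were chosen after their values were seen. The genes and lists were chosen with earlier results of these data known.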

Additional observations from a re-analysis of the deposited data

How the results depend on the processing

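With 2 libraries a group, precision is limited. The count of 33 higher genes ran from 33 to 38 with DESeq2 size factors, total counts, no filter, voom, protein-coding genes or the block. It was 16 with DESeq2's Wald test, 16 with length-adjusted scaling and 17 with that scaling and the block. It was 27 among genes at most 10% overlapped, of which 56 were tested. Leaving out 1 library gave 24 to 33, and 17 of the 33 were called in every such fit. The count of 4 lower genes was 2 with length-adjusted scaling, with or without the block (Mrpl1, and Mrpl57, which was not among the 4), and 2 to 4 with 1 library left out (2 without untreated replicate 2). The median log2 fold change of 0.346 was 0.371 with total counts, 0.379 with no filter, 0.334 with a mean of at least 50 counts, 0.369 with voom, 0.14 with length-adjusted scaling (0.14 with the block too) and 0.343 to 0.366 with 1 library left out. Mrps28 changed sign with length-adjusted scaling (0.087) and with that scaling and the block (0.08998). The cause was not tested.

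Replicate numbers are shared between the groups, but nothing says that a number marks a shared culture, and deviations of same-numbered libraries had a correlation of 0.0239. With the replicate block 36 genes were higher and 4 lower. The calls of the 8 risers with the smallest adjusted p, Mrpl43 and Mrpl1 were kept under each setting that tested them. With DESeq2's Wald test the calls of Mrpl11 (adjusted p = 0.24), Mrpl23 (0.173), Mrpl28 (0.0516), Mrpl58 (0.102) and Mrps28 (0.111) were lost. The call of Mrps28 was also lost with no low-count filter (edgeR adjusted p = 0.0517).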
